A study of Mus musculus with 11 samples.

Results

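The proteasome genes of the mouse heart were followed after myocardial infarction (MI) with and without the ADAM10 inhibitor GI254023X (A10i). Members were the protein-coding genes whose symbol is Psm, a letter from a to g and a number, which gave 48 of 55421 genes, among 21976 protein-coding genes. They comprised 7 subunits of the 20S alpha ring, 7 standard subunits of the 20S beta ring, 3 immunoproteasome subunits (Psmb8, Psmb9 and Psmb10), 2 tissue-restricted subunits (Psma8 and Psmb11), 6 ATPases and 11 other subunits of the 19S cap, 3 chaperones of cap assembly, 4 chaperones of core assembly, and 5 activators or inhibitors of the core. All but the immunoproteasome and the tissue-restricted subunits, 43 genes, were called standard members and set against the immunoproteasome subunits.

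The proteasome degrades proteins that carry ubiquitin chains. Its barrel-shaped 20S core cuts proteins at catalytic sites on the beta subunits Psmb5 (chymotrypsin-like), Psmb6 (caspase-like) and Psmb7 (trypsin-like), and its 19S caps bind, unfold and feed in the substrates. Interferon gamma and immune cells favour an alternative core, the immunoproteasome, in which Psmb8, Psmb9 and Psmb10 take the places of Psmb5, Psmb6 and Psmb7 and yield more peptides for MHC class I presentation. In the heart the proteasome removes damaged and misfolded proteins of the cardiomyocyte.

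RNA was sequenced from the hearts of 11 female C57BL/6J mice, 8 weeks old. Mice in the MI groups had the left anterior descending coronary artery ligated and received either A10i at 100 mg/kg (MI A10i, n = 4, libraries A116, A117, A119 and A120) or DMSO (MI DMSO, n = 4, libraries A105, A127, A128 and A129) from osmotic minipumps for 3 days, and the infarct with its border zone was taken. Sham-operated mice (n = 3, libraries S1, S2 and S3) carry the label DMSO, the solvent that all groups thus share, and gave healthy heart tissue. No transgene or deletion is labelled in any group, and the labels give no day for sham. The region taken from sham hearts is not stated for the RNA, though the paper describes sham samples as similarly processed for its protein blots. A difference in region was not tested and could not be told apart from injury. Because whole tissue was sequenced, fewer cells of a type and less RNA per cell cannot be told apart either.

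The promoters of the immunoproteasome subunits are shown because interferon gamma is known to induce these genes, as it does Psme1 and Psme2 among the standard members, and that of Psmb3 because this standard subunit had the smallest adjusted p of all members. Each window holds 250 bases before and 50 after a RefSeq transcript start (GRCm38.p6, 5′ to 3′ on the gene's strand). Capitals mark a match to the interferon-response core GAAANNGAA, searched on both strands.
Psmb8 (chr17:34197945-34198244, plus strand): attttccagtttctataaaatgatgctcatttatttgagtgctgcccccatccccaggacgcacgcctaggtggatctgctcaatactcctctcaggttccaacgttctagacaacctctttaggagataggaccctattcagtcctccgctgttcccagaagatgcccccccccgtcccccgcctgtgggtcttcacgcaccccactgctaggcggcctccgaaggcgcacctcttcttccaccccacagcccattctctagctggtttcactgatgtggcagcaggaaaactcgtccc
Psmb9 (chr17:34187281-34187580, minus strand): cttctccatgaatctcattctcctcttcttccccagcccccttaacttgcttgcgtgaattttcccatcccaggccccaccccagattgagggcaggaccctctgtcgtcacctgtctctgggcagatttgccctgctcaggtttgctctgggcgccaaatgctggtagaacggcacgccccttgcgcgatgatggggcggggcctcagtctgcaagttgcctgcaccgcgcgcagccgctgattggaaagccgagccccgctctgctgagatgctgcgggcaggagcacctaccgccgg
Psmb10 (chr8:105938343-105938642, minus strand): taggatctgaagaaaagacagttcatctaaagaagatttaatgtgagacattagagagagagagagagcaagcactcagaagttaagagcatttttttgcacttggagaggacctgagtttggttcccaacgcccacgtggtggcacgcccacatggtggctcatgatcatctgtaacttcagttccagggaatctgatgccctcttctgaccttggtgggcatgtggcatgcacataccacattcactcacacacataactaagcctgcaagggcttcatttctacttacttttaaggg
Psmb3 (chr11:97703184-97703483, plus strand): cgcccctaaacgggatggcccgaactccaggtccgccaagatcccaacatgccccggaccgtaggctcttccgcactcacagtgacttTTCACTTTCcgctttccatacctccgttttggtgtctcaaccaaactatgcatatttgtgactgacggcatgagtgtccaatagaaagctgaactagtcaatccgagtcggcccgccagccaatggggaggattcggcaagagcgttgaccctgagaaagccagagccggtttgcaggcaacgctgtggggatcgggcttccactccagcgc

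The Psmb3 window holds the interferon-response core, read on the opposite strand, at bases 89 to 97. The core is not in the windows of Psmb8, Psmb9 and Psmb10. Nor is it in those of Psma5 and Psmd14, standard members also called higher in MI DMSO against sham, whose windows are not printed. The whole windows of Psmb8 and Psmb9 lie within the gene span of the table, since RefSeq places those starts further in. RefSeq windows were found for 40 members, 43 windows in all. The interferon-response core was in 16.3% of these windows against 8.56% of all 32851 windows, and the core of the antioxidant response element, TGACNNNGC, which Nfe2l1 and Nfe2l2 bind, in 14% against 12.4%. The windows with the interferon-response core belonged to Psmb3, Psmb4, Psmc2, Psmd4, Psmd9, Psme1 and Psmg4. Those with the antioxidant core belonged to Psmb5, Psmb6, Psmc6, Psmd12, Psmd9 and Psme4. A match in these letters does not show that a factor binds. Only these cores were searched. A window without the interferon-response core, such as that of Psmb8, may therefore still hold another motif through which interferon gamma acts.

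Total counts per library lay between 21702623 and 29511768. Mitochondrial transcripts took 21.5 to 22.2% of the counts in sham and 14.8 to 18.6% in MI libraries, and how this difference is handled moves every comparison with sham, as given below. The summed level of 10 cardiomyocyte markers was 85680 to 88220 CPM (the count relative to the scaled total of its library) in sham, 42930 to 60950 CPM in MI DMSO and 49640 to 67540 CPM in MI A10i, so heart muscle transcripts were abundant in every library. Nothing in the labels says how the libraries were batched.

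Of the 48 members, 47 had enough counts to be tested. Psmb11, the thymus-specific beta subunit, had 1 count in library A129 and none in the other libraries. Psma8, the alpha subunit of the testis, was close to the limit of detection with 9 to 26 counts per library and a mean of 0.278 ± 0.0849 RPKM, the CPM per kilobase of gene length (SD, n = 3), in sham. The standard members lay between 1.28 RPKM (Psmg3) and 72.1 RPKM (Psma6) in sham, with a median of 23.3 RPKM. In sham the catalytic subunits Psmb5, Psmb6 and Psmb7 stood at 49.3 ± 2.50, 42.9 ± 0.760 and 37.5 ± 0.761 RPKM (SD, n = 3), within 1.5 times of each other. Their inducible counterparts were uneven, with Psmb8 at 3.59 ± 0.493, Psmb9 at 1.71 ± 0.307 and Psmb10 at 21.3 ± 1.19 RPKM (SD, n = 3). The order Psmb10, Psmb8, Psmb9 held in all group means. Per kilobase, Psmb10 was below Psmb7 by a smaller margin than the other pairs, but this depends on the gene lengths used. By counts the mean log2 ratio in sham was -1.82 for Psmb10 to Psmb7 and -1.88 for Psmb8 to Psmb5. In MI DMSO it was -2.25 and -1.66, and in MI A10i -2.04 and -1.50.

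Some members share stretches of sequence with other genes, and only uniquely aligned reads were counted. Of all transcript stretches of 100 bases, the read length, 23.7% of those of Psma5 recur letter for letter on the same strand in a transcript of another gene, and so do 22.2% for Psmb5, 18.4% for Psme2 and 13.4% for Psma3. The other 44 members had 6.19% or less, and 35 members had none. Psme2, the partner of Psme1 in the activator PA28, shares its stretches with Psme2b, a gene of its own outside the rule that had 705 to 1112 counts per library. Levels of Psma5, Psmb5, Psme2 and Psma3 are therefore uncertain, since reads lost to a copy lower them. Exons of Psmb9 overlap those of Tap1 on the opposite strand, those of Psmb7 overlap Nek6, Psmc3 overlaps Slc39a13, Psmd13 overlaps Sirt3 and Psme1 overlaps Emc9, and the strand setting of the counting is not given in the sources used here.

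The first comparison asked what infarction did to proteasome transcripts, with MI DMSO set against sham. Most core and cap subunits were slightly above sham, and 3 standard members rose past an adjusted p of 0.01 (edgeR quasi-likelihood test, Benjamini-Hochberg adjustment over 17117 genes). These were Psmb3, Psmd14 and Psma5, with none past the threshold in the lower direction. The 3 of 47 members called higher, 6.38%, compare with 12.9% of all genes called higher and 9.6% called lower, so the share of called members was below the background under this scaling. Direction was less even: the log2 fold change was above 0 for 36 of 43 standard members, and for 50.2% of all genes tested. The median log2 fold change was 0.12 over the standard members and 0.002 over all genes tested. The lowest MI DMSO library was above the highest sham library for 18 of 47 members, 38.3% against 25.1% of all genes, and the reverse held for 3, 6.38% against 23.6%. Without A105 the first number was 19, against 28.7% of all genes.

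Psmb3, a non-catalytic subunit of the beta ring (chr11:97703399-97713500), had 18.5, 18.3 and 18.2 CPM in S1, S2 and S3, and 24.8, 23.7, 25.9 and 24.5 CPM in A105, A127, A128 and A129. Every MI DMSO library lay above every sham library. The log2 fold change was 0.43 ± 0.08 (SE), or 1.34-fold, with an adjusted p of 0.0025. When any sham library was left out the adjusted p rose to 0.016 to 0.018 and the call was lost.

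Psmd14, the deubiquitinase of the cap that removes ubiquitin chains as the substrate enters (chr2:61711694-61800376), had 41.5, 40.1 and 43.2 CPM in S1, S2 and S3, against 57.7, 49.99, 50.4 and 56 CPM in A105, A127, A128 and A129. The groups did not overlap, and the log2 fold change was 0.36 ± 0.08 (SE), with an adjusted p of 0.0068. The call was lost without S1 (adjusted p = 0.036), S2 (0.043), S3 (0.025) or A105 (0.014).

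Psma5, a subunit of the alpha ring (chr3:108256926-108279974), had 7.32, 9.38 and 7.58 CPM in S1, S2 and S3, and 12.5, 10.2, 12.2 and 13.6 CPM in A105, A127, A128 and A129. It had the largest fold change of the members, a log2 value of 0.58 ± 0.14 (SE), with an adjusted p of 0.0091 by edgeR and 0.012 by limma-voom, and its shared sequence makes the level uncertain. Without any single library other than A127 the adjusted p lay between 0.014 and 0.049.

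By subcomplex, all 7 alpha subunits had a log2 fold change above 0 in MI DMSO against sham, with a median of 0.16 and a range from 0.03 (Psma3) to 0.58 (Psma5). The 7 standard beta subunits were likewise all above 0, with a median of 0.17, and so were the 11 non-ATPase subunits of the cap, with a median of 0.10. Of the 6 ATPases, which form the unfolding ring of the cap, 5 were above 0 and Psmc3 was at -0.11. The chaperones and the activators went both ways, with Psmg1 at -0.21 ± 0.09 and Psmf1 at -0.32 ± 0.09 (SE). Without MI DMSO library A105 the number of standard members above 0 fell to 29 of 43 and their median to 0.07, while all genes had a median of -0.02.

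**Figure D1:**
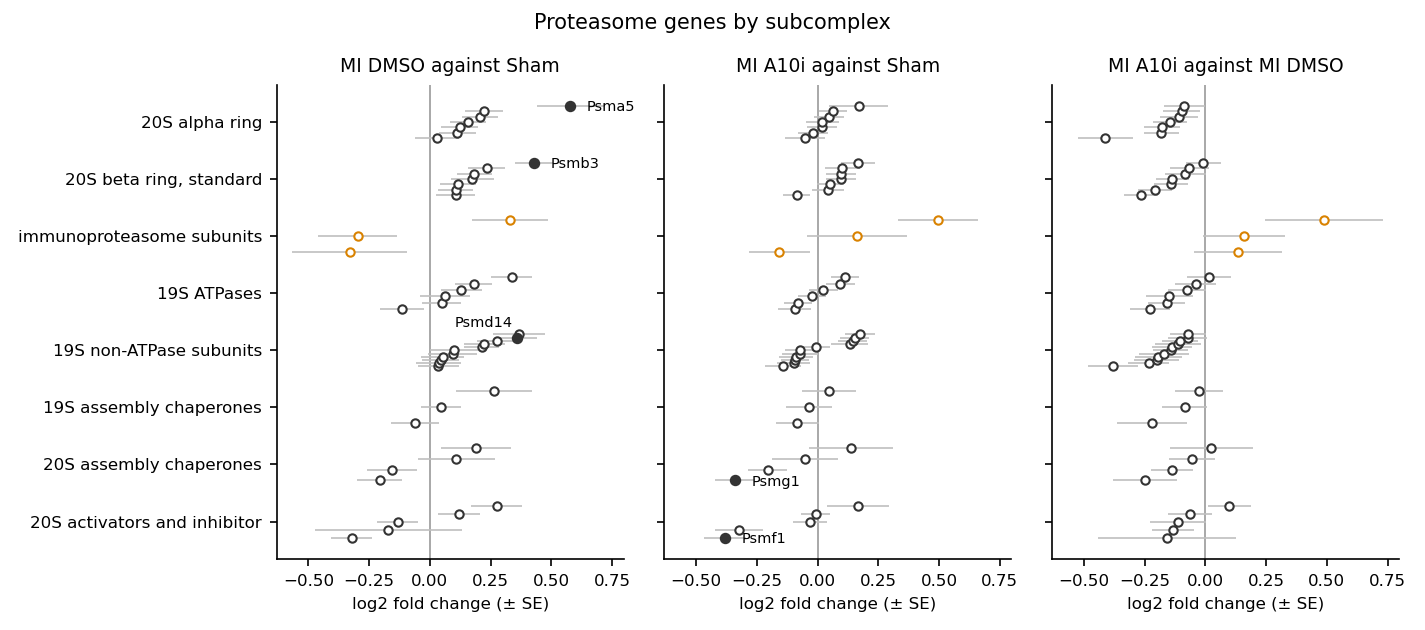
Log2 fold change of each tested member (x axis, grey bars ± SE) by subcomplex (y axis) in each of the 3 comparisons, with immunoproteasome subunits in orange and filled points for an adjusted p under 0.01. The 5 filled points are the labelled genes, and in the right panel 40 of 43 standard members lie left of 0 while the 3 immunoproteasome subunits lie right of it.

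The scaling of the libraries decides how many members are called against sham. Trimmed-mean (TMM) scaling gave 3 higher members, library size alone gave 21 (44.7% of those tested, against 19.5% of all genes called higher under the same scaling), and library size without mitochondrial genes gave 10 (21.3% against 16.1%), with none lower under any of them. The share of members called higher was thus below that of all genes under TMM scaling and above it under the other 2. Library size alone also moved the median log2 fold change of all genes to 0.21, with the standard members at 0.32, and leaving out mitochondrial genes moved them to 0.12 and 0.23. A change of scaling adds nearly the same value to every gene of a comparison, so the distance of the members from the median gene is fixed and is no check of the result.

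The second comparison set MI A10i against the same sham libraries. No member was called higher, whereas the background was 13.7% of 16971 genes, and 2 members were called lower, Psmf1 and Psmg1, or 4.26% of those tested against 9.11% of all genes. The log2 fold changes of the standard members were split around 0, with 21 above and 22 below where 49.5% of all genes were above, a median of -0.01 and a range from -0.38 to 0.17. Groups did not overlap for 8 members that were higher, 17% against 24.8% of all genes, and for 10 that were lower, 21.3% against 23.5%. Under library size alone 9 members were called higher, 19.1% against 20.2% of all genes, and none lower, against 3.41%, when the median of all genes was 0.18 and that of the standard members also 0.18. Library size without mitochondrial genes gave no call in either direction.

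Psmf1 encodes PI31, a protein that binds the core and inhibits it in vitro (chr2:151715812-151744186). It had 20.4, 21.9 and 21.9 CPM in S1, S2 and S3, 16.5, 16.3, 18.4 and 17.3 CPM in A105, A127, A128 and A129, and 15.3, 17.3, 17.8 and 15.1 CPM in A116, A117, A119 and A120. Every MI library was below every sham library. The log2 fold change was -0.38 ± 0.09 (SE) in MI A10i against sham, with an adjusted p of 0.0059, and -0.32 ± 0.09 in MI DMSO against sham, with an adjusted p of 0.015. The call in MI A10i was lost without S1 (adjusted p = 0.018), S2 (0.030), S3 (0.030) or A120 (0.017).

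Psmg1 encodes a chaperone that pairs with Psmg2 to assemble the alpha ring (chr16:95979933-95990960). Its level was 15.3, 14.3 and 14.4 CPM in S1, S2 and S3, 13.7, 12.9, 12.0 and 12.3 CPM in A105, A127, A128 and A129, and 12.0, 10.9, 11.6 and 11.6 CPM in A116, A117, A119 and A120. It too was below every sham library in all MI libraries, with a log2 fold change of -0.34 ± 0.08 (SE) and an adjusted p of 0.0084 in MI A10i, and -0.21 ± 0.09 with an adjusted p of 0.098 in MI DMSO. The first call was lost without S1 (adjusted p = 0.043), S2 (0.027), S3 (0.030), A117 (0.020), A119 (0.016) or A120 (0.019), and with no filter on low counts (0.017).

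**Figure D2:**
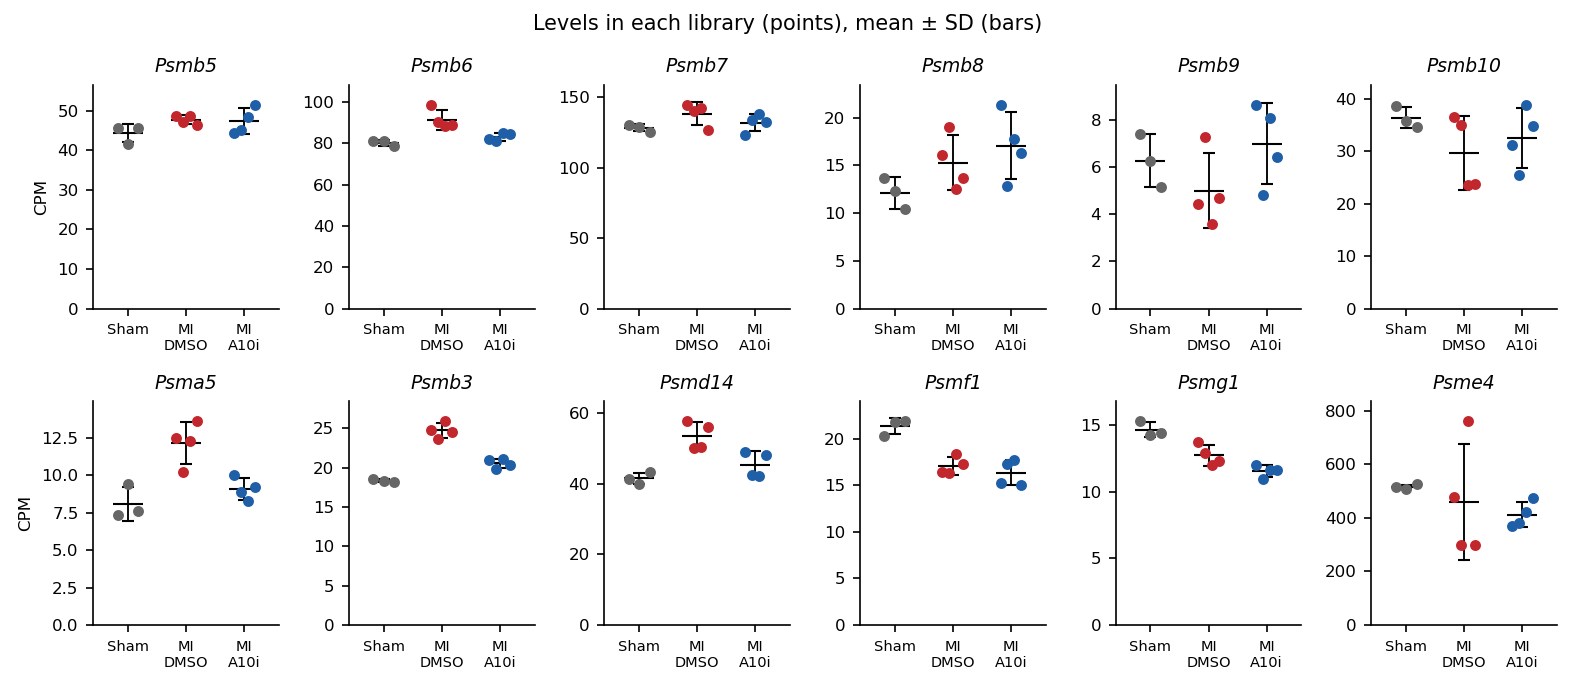
CPM (y axis, from 0) of 12 members in every library, grouped as sham (grey), MI DMSO (red) and MI A10i (blue), with black bars for mean ± SD. Psmb3 and Psmd14 are highest in the MI DMSO libraries, Psmf1 and Psmg1 are lower in all MI libraries than in sham, and Psme4 spans 299 to 761 CPM within MI DMSO.

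The third comparison asked whether A10i changed the proteasome transcripts of the infarcted heart, with MI A10i set against MI DMSO. No member passed an adjusted p of 0.01, and none of the 16792 genes did, a background of 0.0% in each direction. DESeq2 called 0.605% of all genes higher and 0.714% lower at the same threshold, but no member. At an unadjusted p under 0.05, 8 of 47 members were lower and none was higher, against 6.73% and 7.1% of all genes. A p above the threshold does not show that the treated hearts were alike.

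The direction of the standard members was nevertheless lopsided. In MI A10i against MI DMSO 40 of 43 had a log2 fold change below 0, against 49.3% of all genes, with a median of -0.14 and a range from -0.41 to 0.10. The 3 above 0 were Psmc3 (an ATPase), Psme1 (a PA28 subunit) and Psmg3 (a core chaperone), named after their values were seen. All subunits of the alpha ring (7), the standard beta ring (7) and the non-ATPase cap (11) were below 0, with medians of -0.15, -0.14 and -0.14. Scaling had little bearing here, as 40 of 43 were below 0 and the median of the standard members lay between -0.15 and -0.13 under each of the other scalings and filters tried.

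In 13 of 47 members, 27.7%, every MI A10i library lay below every MI DMSO library, a pattern shown by 4.11% of all genes. These were Psma2, Psma5, Psma6, Psma7, Psmb2, Psmb3, Psmb4, Psmb6, Psmc1, Psmc4, Psmd7, Psmd11 and Psmd14, all from the core rings or the cap. No member showed the opposite pattern, which 4.01% of all genes did. Since the members were not independent of each other within a library, no test was made of these counts. MI DMSO library A105 held the highest level of 30 of 43 standard members within its group, against 25.6% of all genes. Without A105 the direction was below 0 for 38 of 43 standard members with a median of -0.10, and 14 members did not overlap, against 4.95% of all genes.

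The 5 members with the smallest unadjusted p were Psmd11, Psmb3, Psma5, Psmb2 and Psmc4. Psmd11, a scaffold subunit of the cap, had 108, 80.9, 80.7 and 86.5 CPM in A105, A127, A128 and A129 and 65.5, 72.2, 69.1 and 66.3 CPM in A116, A117, A119 and A120, around the sham values of 67.5, 69.0 and 69.8 CPM. Its log2 fold change was -0.38 ± 0.10 (SE) with an adjusted p of 0.16 by edgeR. Psmb3 had 20.9, 19.8, 21.1 and 20.3 CPM in A116, A117, A119 and A120, between the sham and MI DMSO libraries given above, and its log2 fold change was -0.26 ± 0.07 (SE; adjusted p = 0.16). Psma5 had 9.99, 8.90, 8.25 and 9.22 CPM in the MI A10i libraries and a log2 fold change of -0.41 ± 0.11 (SE; adjusted p = 0.16). Psmb2, a beta subunit without catalytic activity, had a log2 fold change of -0.21 ± 0.07 (SE; adjusted p = 0.23), with 54.2 to 55.9 CPM in MI A10i, 60.2 to 68.5 CPM in MI DMSO and 57 to 60.1 CPM in sham. Psmc4, an ATPase, was at -0.23 ± 0.08 (SE; adjusted p = 0.25), with 65.5 to 70.8, 75.0 to 90.6 and 61.5 to 64.3 CPM in the same order.

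For 4 of these 5 members the log2 fold change of MI DMSO against sham stood above 0.3, with Psmd11 at 0.37, Psmb3 at 0.43, Psma5 at 0.58 and Psmc4 at 0.34. In MI A10i against sham they stood at -0.01, 0.17, 0.17 and 0.11. Psmb2 stood at 0.12 and -0.09. The comparisons share the sham libraries or the MI DMSO libraries, so a high value in MI DMSO enters both of those that use it. Relative to the sham mean, the median standard member was at 0.23, 0.05, 0.12 and 0.11 (log2) in A105, A127, A128 and A129, and at -0.01, -0.02, 0.02 and 0.04 in A116, A117, A119 and A120. The lowest MI DMSO library and the highest MI A10i library, A127 and A120, were thus 0.05 and 0.04, almost level.

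**Figure D3:**
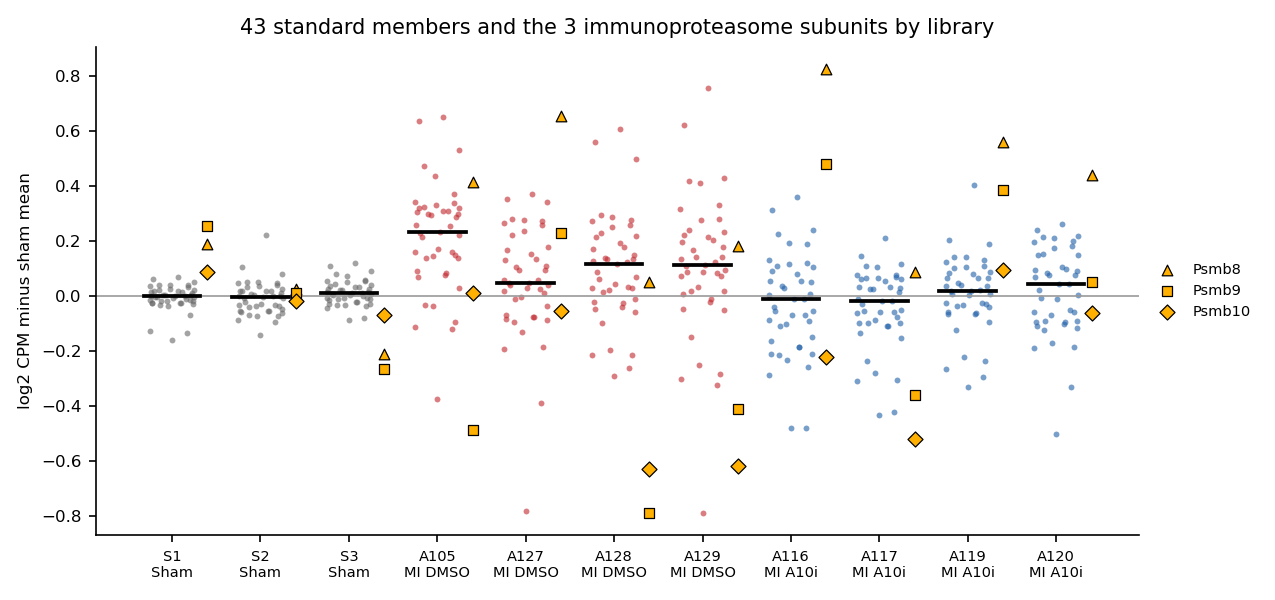
Log2 CPM minus the sham mean (y axis) of the 43 standard members (dots) in each of the 11 libraries (x axis), with a black line for their median and orange symbols for Psmb8, Psmb9 and Psmb10. The medians lie at 0.05 to 0.23 in MI DMSO and -0.02 to 0.04 in MI A10i, and the immunoproteasome subunits spread more widely than most dots within both MI groups.

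Replicate spread was narrow for the standard members, with a median SD (log2 CPM) of 0.039 in sham, 0.10 in MI DMSO and 0.071 in MI A10i, against 0.11, 0.22 and 0.19 over all 17480 genes compared, which include many of lower counts. The immunoproteasome subunits had SDs of 0.080 to 0.26 in sham, 0.27 to 0.43 in MI DMSO and 0.26 to 0.38 in MI A10i. The exception among standard members was Psme4, the activator PA200, known for the degradation of acetylated histones. It had 514, 509 and 525 CPM in S1, S2 and S3, but 478, 301, 761 and 299 CPM in A105, A127, A128 and A129, an SD of 0.64 on the log2 scale. In A116, A117, A119 and A120 it had 370, 382, 420.5 and 474 CPM, all below sham, with a log2 fold change against sham of -0.32 ± 0.10 (SE) and an adjusted p of 0.026 by edgeR and 0.0039 by DESeq2.

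Psmf1, the inhibitor, is given above. Psme1 and Psme2, the subunits of PA28 that interferon gamma induces, had log2 fold changes against sham of -0.13 ± 0.08 and 0.27 ± 0.11 (SE) in MI DMSO and of -0.03 ± 0.07 and 0.17 ± 0.13 in MI A10i, none of them past 0.05 after adjustment. Psme3, the nuclear activator PA28 gamma, was at 0.12 ± 0.09 and -0.01 ± 0.06. Between MI A10i and MI DMSO the adjusted p of all 5 activator and inhibitor genes was 0.54 or more.

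No immunoproteasome subunit passed an adjusted p of 0.01 in any comparison. Against sham they went different ways, while in MI A10i against MI DMSO all 3 had a log2 fold change above 0, also with each library left out in turn, at 0.16 ± 0.17 for Psmb8, 0.49 ± 0.24 for Psmb9 and 0.14 ± 0.18 for Psmb10 (SE). Psmb8, the chymotrypsin-like subunit (chr17:34197721-34201454), had 13.7, 12.3 and 10.4 CPM in S1, S2 and S3, 16.1, 19, 12.5 and 13.7 CPM in A105, A127, A128 and A129, and 21.3, 12.8, 17.8 and 16.3 CPM in A116, A117, A119 and A120. Both MI groups overlapped sham. The log2 fold change was 0.33 ± 0.16 (SE; adjusted p = 0.12) in MI DMSO and 0.50 ± 0.17 (SE; adjusted p = 0.040) in MI A10i against sham. Without A117 the latter rose to 0.61 with an adjusted p of 0.0062, and without any other single library it did not pass 0.01.

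Psmb9 (chr17:34181987-34187764) had 7.40, 6.24 and 5.16 CPM in S1, S2 and S3, 4.43, 7.27, 3.59 and 4.67 CPM in A105, A127, A128 and A129, and 8.64, 4.83, 8.09 and 6.43 CPM in A116, A117, A119 and A120. In MI DMSO 3 of 4 libraries were below all sham libraries and in MI A10i 2 of 4 were above them, and the groups overlapped. The log2 fold changes were -0.33 ± 0.24 in MI DMSO and 0.16 ± 0.21 in MI A10i against sham, and 0.49 ± 0.24 (SE; adjusted p = 0.41) in MI A10i against MI DMSO. The last value lay between 0.36 and 0.73 when each library was left out in turn.

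Psmb10 (chr8:105935735-105938444) had 38.6, 35.9 and 34.7 CPM in S1, S2 and S3, 36.6, 35, 23.5 and 23.7 CPM in A105, A127, A128 and A129, and 31.2, 25.4, 38.8 and 34.8 CPM in A116, A117, A119 and A120. Libraries A128, A129 and A117 were low, and these were also the libraries with the least Psmb8 in their groups. The log2 fold changes were -0.30 ± 0.16 in MI DMSO and -0.16 ± 0.13 in MI A10i against sham, and 0.14 ± 0.18 (SE) between the MI groups, with adjusted p of 0.17, 0.35 and 0.79 by edgeR. Under library size alone the second value was 0.03 rather than -0.16.

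Transcripts of each immunoproteasome subunit were set against those of the standard subunit it replaces, as a ratio that does not depend on how libraries are scaled. Exchange of subunits in the core itself was not measured. For Psmb9 to Psmb6 the log2 ratio of counts was -3.69 ± 0.24 in sham (SD, n = 3), -4.24 ± 0.43 in MI DMSO and -3.60 ± 0.36 in MI A10i (SD, n = 4). MI A10i exceeded MI DMSO by 0.64, or 1.56-fold, with p = 0.086 in an exact permutation test over libraries, two-sided, and 0.3 adjusted over the 9 ratio tests. For Psmb10 to Psmb7 the values were -1.82 ± 0.06, -2.25 ± 0.31 and -2.04 ± 0.25. Here all MI DMSO libraries, between -2.60 and -1.98, were below all sham libraries, between -1.86 and -1.76, with a difference of -0.43 and an exact permutation p of 0.086, or 0.3 adjusted. For Psmb8 to Psmb5 the values were -1.88 ± 0.22, -1.66 ± 0.27 and -1.50 ± 0.33, and the groups overlapped in every pair (adjusted exact permutation p of 0.3 or more). The smallest p that 3 against 4 or 4 against 4 libraries can give is 0.029, so none of the 9 tests could have passed 0.05 after adjustment unless most of them reached it.

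Per kilobase, the 3 immunoproteasome subunits made up 17.9, 17.1 and 16.1% of the summed RPKM of all 6 catalytic subunits in S1, S2 and S3. The share was 15.5, 16.6, 11.4 and 12.4% in A105, A127, A128 and A129, and 17.2, 13.1, 17.8 and 16.1% in A116, A117, A119 and A120. The group means were 17.0 ± 0.899 (SD, n = 3), 14 ± 2.46 and 16 ± 2.09% (SD, n = 4), and the groups overlapped. By RPKM, Psmb10 carried most of this share, at 33.2 to 59.4% of the RPKM of Psmb7 over all libraries, while Psmb8 was at 6.06 to 12.8% of Psmb5 and Psmb9 at 2.08 to 5.39% of Psmb6. These percentages rest on the gene lengths used, which were 3381 bases for Psmb8 and 899 for Psmb5. They therefore do not give the composition of the core, and the count ratios above rank the pairs otherwise.

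**Figure D4:**
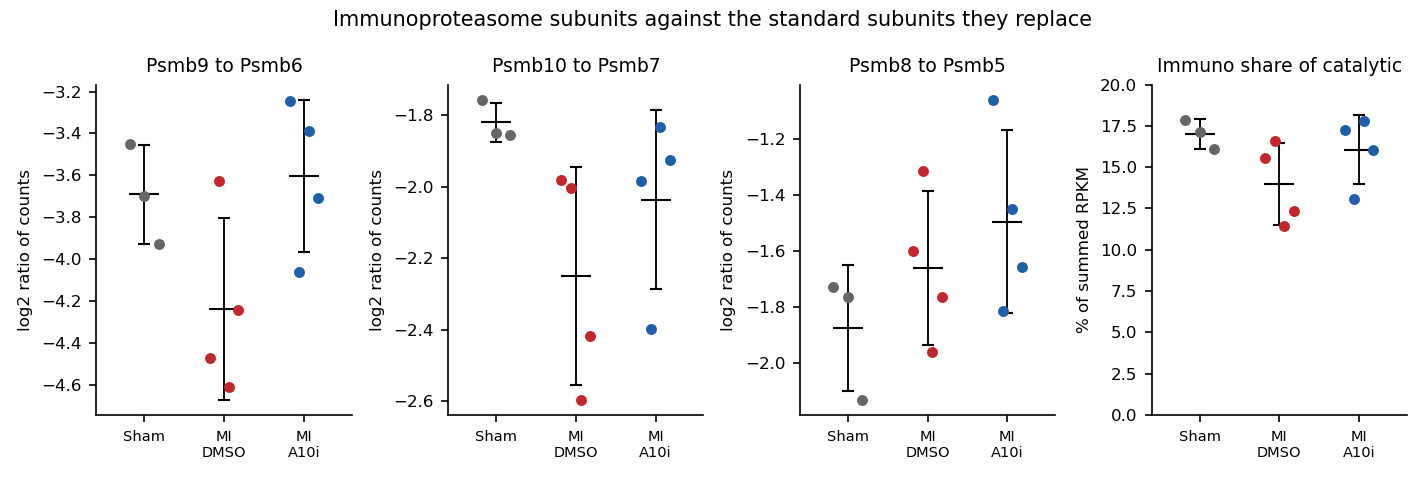
Log2 ratio of counts of each immunoproteasome subunit to its standard counterpart (first 3 panels) and immunoproteasome share of the summed RPKM of the 6 catalytic subunits (last panel, axis from 0) in every library, with mean ± SD. MI DMSO libraries reach the lowest values of Psmb9 to Psmb6 and Psmb10 to Psmb7, and the groups of each panel overlap except for MI DMSO and sham in Psmb10 to Psmb7.

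Interferon gamma itself was close to absent, with 1 count of Ifng in S1 and A119 and none elsewhere. Of 11 tested genes of interferon gamma signalling and response, 2 were called higher and 1 lower in MI DMSO against sham, and 3 higher and 1 lower in MI A10i. The log2 fold change was below 0 for 7 of them in MI DMSO (median -0.12) and for 5 in MI A10i (median 0.09). For this list and those below, the background was 12.9% of all genes called higher and 9.6% lower in MI DMSO. In MI A10i it was 13.7% and 9.11%. All genes were above 0 in 50.2% and 49.5% of cases in MI DMSO and MI A10i against sham. Cxcl10, a chemokine that interferons induce, rose by 2.44 ± 0.36 in MI DMSO and 3.37 ± 0.60 in MI A10i (log2, SE; adjusted p = 0.00087 and 0.0027), and Socs1, a feedback inhibitor, rose by 1.82 ± 0.34 and 1.93 ± 0.31 (adjusted p = 0.0028 and 0.0013). Cxcl10 had only 6 to 10 counts in the sham libraries. Cxcl9, named after its values were seen, was at -0.92 ± 0.28 and -0.59 ± 0.39 (SE; adjusted p = 0.025 and 0.26 by edgeR). Irf8, a macrophage transcription factor, rose in MI A10i by 1.19 ± 0.17 and was at 1.08 ± 0.27 in MI DMSO (adjusted p = 0.00073 and 0.013), and the receptor chain Ifngr2 fell by 0.46 ± 0.10 and 0.45 ± 0.09. Irf1 and Nlrc5, transcriptional activators of MHC class I and immunoproteasome genes, did not pass: Irf1 had log2 fold changes of -0.24 ± 0.14 and 0.10 ± 0.11, and Nlrc5 of -0.03 ± 0.38 and 0.19 ± 0.25 in MI DMSO and MI A10i against sham. Of 11 genes of MHC class I presentation, 1 was higher in MI DMSO (Pdia3) and 2 in MI A10i (Pdia3 and H2-D1), with none lower. Tap1, the peptide transporter whose start lies next to that of Psmb9, had -0.06 ± 0.23 and 0.27 ± 0.21, and 0.32 ± 0.23 between the MI groups. In that comparison 49.3% of all genes were below 0. Above 0 were 9 of 11 MHC class I genes (median 0.11) and 9 of 11 tested interferon gamma genes (median 0.25). Among them, chosen after their values were seen, B2m, the light chain of MHC class I, was at 0.43 ± 0.12, and the heavy chains H2-K1 and H2-D1 were at 0.38 ± 0.10 and 0.34 ± 0.10 (SE; adjusted p = 0.17, 0.15 and 0.18 by edgeR). Irf1 was at 0.34 ± 0.15 (SE; adjusted p = 0.34 by edgeR).

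Leukocytes express the immunoproteasome without stimulation. All 8 pan-leukocyte markers rose in both MI groups, from a summed 78.4 to 96.3 CPM in sham to 203 to 442 CPM in MI DMSO and 234 to 452 CPM in MI A10i, and no gene of the marker lists was at 0 in all libraries. Macrophage markers rose in 7 of 9 genes in MI DMSO and 9 of 9 in MI A10i, with 353 to 387, 577 to 982 and 766 to 1434 CPM in sham, MI DMSO and MI A10i. Neutrophil markers rose in all 6 that were tested of 8. Their sum went from 1.05 to 2.08 CPM in sham to 67.9 to 126 CPM in MI DMSO and 13.6 to 47.7 CPM in MI A10i. This sum was lower in every MI A10i library than in every MI DMSO library, though no gene of the list passed 0.01 between them by edgeR. With DESeq2, the paper reports the neutrophil markers S100a8 and S100a9 as significantly lower under A10i. T and NK cell markers, the cells that make interferon gamma, summed to 0.798 to 3.03 CPM over all libraries, and 1 of 10 was tested. B cell markers summed to 3.69 to 14.5 CPM, with 1 of 3 tested lower in MI DMSO, and dendritic cell markers to 19.3 to 26.6 CPM, with 1 of 3 and 2 of 3 tested higher in MI DMSO and MI A10i. What these cells contributed to the members was not tested.

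Of the tissue cells, cardiomyocyte markers fell in 5 of 10 genes in MI DMSO and 3 of 10 in MI A10i, and endothelial markers in 1 of 7 and none. Fibroblast markers rose in 4 of 8 genes in MI DMSO and 7 of 8 in MI A10i, with 1908 CPM in A105 and 3041 to 6392 CPM in the other MI DMSO libraries, so A105, in which most standard members were highest, had the lowest fibroblast sum of the MI libraries. A105 also had the lowest macrophage sum of the MI libraries (577 CPM), the highest cardiomyocyte sum of MI DMSO (60950 CPM, against 42930 to 55140), and 3702 CPM of red blood cell transcripts, against 232 to 949 CPM in the other MI DMSO libraries. None of 5 red blood cell transcripts passed in either. Between the MI groups no gene of these lists passed 0.01 by edgeR. In MI A10i against MI DMSO 49.3% of all genes had a log2 fold change below 0. It was above 0 for 9 of 9 macrophage markers (median 0.40) and 7 of 8 fibroblast markers (0.49). The same held for 8 of 10 cardiomyocyte markers (0.18) and 6 of 7 endothelial markers (0.12). All 6 neutrophil markers tested were below 0 (-1.74). What part these cell types had in the direction of the standard members was not tested.

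The partners and regulators of the proteasome were examined as lists. Of 17 partners outside the symbol rule, 1 was lower in MI DMSO, Ecpas, an adaptor of the 26S proteasome (-0.48 ± 0.10, SE; adjusted p = 0.0039), and none passed in MI A10i. Pomp, the chaperone that matures the core, had log2 fold changes of 0.24 ± 0.07 and 0.16 ± 0.06 against sham (adjusted p = 0.017 and 0.043 by edgeR). Between the MI groups it was at -0.09 ± 0.06. In that comparison 15 of 17 partners were below 0 (median -0.09), against 49.3% of all genes. Of 9 transcription factors of proteasome genes and their processing enzymes, 3 were higher in MI DMSO: Nfe2l2 (0.63 ± 0.08), Maff (2.20 ± 0.16) and Mafk (0.92 ± 0.15). In MI A10i Nfe2l2 (0.28 ± 0.06) and Maff (1.48 ± 0.11) were higher, while Nfe2l1, which drives proteasome genes when the proteasome is impaired, was lower at -0.46 ± 0.10 (adjusted p = 0.0054). In MI DMSO Nfe2l1 was at -0.34 ± 0.12 (adjusted p = 0.047). Of 8 ubiquitin genes and ubiquitin ligases, Rps27a was higher in MI DMSO (0.87 ± 0.15) and in MI A10i (0.74 ± 0.18), and Trim63, the muscle ligase MuRF1, was lower in MI A10i (-0.73 ± 0.10, adjusted p = 0.00073). No gene of these lists passed 0.01 between MI A10i and MI DMSO by edgeR.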

How the data were processed

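RNA was prepared with poly(A) selection and a strand-specific kit and sequenced as 100-base read pairs. Per the labels and the study's methods, the authors demultiplexed with bcl2fastq 2.20.0, mapped read pairs to mm10 with GSNAP and, with featureCounts 2.0.1, counted reads that map uniquely to genes of Ensembl 98; the strand setting is not given in the sources used here. The deposited table holds raw counts, whole numbers without normalization, and 92 spike-in rows with 14 to 55 counts per library were left out. Gene symbols and positions came from GENCODE M21, in which all 48 members have the span given in the table.

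Members and gene lists were chosen with earlier results of these data known. Each comparison was fitted on its own libraries in edgeR 4.0.16 (R 4.3.3) with filterByExpr, TMM scaling and the two-sided quasi-likelihood test (robust), Benjamini-Hochberg adjusted over all genes tested, at a threshold of 0.01. SE is that of the log2 fold change. CPM used TMM-scaled library sizes, and RPKM the gene length of the table. Ratios of counts (pseudocount 0.5) were compared by exact permutation over libraries in Python 3.11.15 with numpy 2.4.6. Alternatives were DESeq2 1.42.0, limma-voom (limma 3.58.1), other scalings and filters, 1 fit of all 11 libraries, a threshold of 0.05, a pseudocount of 5 and the omission of each library; counts of groups without overlap were repeated without A105, which was chosen after seeing the data. Each library is 1 mouse, and the tests set the group difference against the spread between mice. In edgeR the spread of each gene is also drawn towards that of the other genes.

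Text names the catalytic and tissue-restricted subunits, the activators and inhibitor, per subcomplex the 3 higher and 3 lower members of largest fold change past 0.01, the 5 smallest p between MI groups, and of the other lists the genes past the threshold that changed most with Pomp, Nfe2l1, Tap1, Irf1, Nlrc5 and Ifng. Others are given by count and range. Some genes of the lists are not reported here. The lists cover proteasome partners, transcription factors, MHC class I presentation, interferon gamma, ubiquitin and 10 sets of cell markers. Stretches of 100 bases were compared between GENCODE M21 transcripts. Promoters were RefSeq's. Amino acid sequences were not used here. Spread, position and no overlap used CPM scaled over all 11 libraries.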

Additional observations from a re-analysis of the deposited data

Results flagged for a closer look

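Among the named members and ratios, 45 groups of 4 libraries were checked for a library far from the others of its group, and chance flags about 1 in 20 such groups. Psmc4, an ATPase of the 19S cap, had 90.6 CPM in MI DMSO library A105, against 75.0 to 76.1 CPM in A127, A128 and A129, so that the gap made up 0.929 of the group's range. Psmb11 was at 0.0392 CPM in MI DMSO library A129, which is 1 count against none in the other libraries and carries no information.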

How the results depend on the processing

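Scaling mattered most in the comparisons with sham. Members called higher in MI DMSO numbered 3 (6.38% of those tested, against 12.9% of all genes), but 21 under library size alone (44.7% against 19.5%), 10 under library size without mitochondrial genes (21.3% against 16.1%), 6 with all 11 libraries in 1 fit (12.8% against 14.4%) and 10 at an adjusted p under 0.05 (21.3% against 21.5%), where 1 was also lower (against 18.4%). In MI A10i against sham the higher members went from 0 to 9 under library size alone (19.1% against 20.2%) and 2 at 0.05 (4.26% against 21.7%), and the 2 lower members to 0 under both library-size scalings (against 3.41% and 5.58%) and 1 with no filter on low counts (2.13% against 6.16%). Leaving out each library in turn gave 0 to 3 higher members in MI DMSO, with 0 without S1, S2 or S3 and 1 without A105. In MI A10i it gave 0 to 1 higher, which was Psmb8 without A117, and 0 to 2 lower, with 0 without S1, S2, S3 or A120 and 1 without A117 or A119. These fits have fewer libraries, and the cause of the other shifts was not tested. Between the MI groups every alternative gave no call.

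Small log2 fold changes changed sign. In MI DMSO against sham, library size alone gave 0.13 for Psma8, 0.069 for Psme1 and 0.022 for Psme4, and library size without mitochondrial genes 0.047 for Psma8. In MI A10i against sham, library size alone gave 0.028 for Psmb10, 0.038 for Psma8, 0.16 for Psme1, 0.18 for Psme3, 0.18 for Psmd11 and 0.10 for Psmb2, library size without mitochondrial genes 0.070 for Psme1, 0.092 for Psme3, 0.093 for Psmd11 and 0.015 for Psmb2, and at least 10 counts in every library 0.0015 for Psme3 and 0.0030 for Psmd11. With each library left out, Psma8 ranged from -0.27 to 0.17 in MI DMSO and from -0.53 to 0.075 in MI A10i against sham, and from -0.47 to 0.084 between the MI groups. In MI A10i against sham the ranges were -0.072 to 0.013 for Psme1, -0.023 to 0.026 for Psme3 and -0.033 to 0.015 for Psmd11, and between the MI groups -0.051 to 0.024 for Psmb5 and -0.32 to 0.20 for Psme4, which was above 0 without A128. The log2 ratio of Psmb9 to Psmb6 in MI A10i against sham ranged from -0.029 to 0.24. Of 928 values of named members under an alternative, 841 kept direction and side of the threshold. The 8 other ratio comparisons kept their direction and their side of 0.05 under a pseudocount of 5, as the difference of edgeR fold changes and without each library. No paired analysis was possible because the labels give the groups no shared replicate numbers.

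Depth limited Psmb11 and Psma8, and 3 or 4 mice a group limit small differences of the other members.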
